A study of Mus musculus with 18 samples.

Results

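Glucose, fructose, inositol, lactate and related small molecules cross kidney cell membranes through carriers of 3 solute carrier gene families: Slc2a, Slc5a and Slc16a. The genes described here were every row of the count table whose mouse symbol begins with Slc2a, Slc5a or Slc16a followed by a number, with at least 10 counts summed over all 18 libraries, and names ending in -ps or os were left out. This gave 35 carriers of the 32285 genes in the table: 11 of the Slc2a, 11 of the Slc5a and 13 of the Slc16a family. Slc5a5, with 10 counts, and Slc5a4a, with 14, lay just inside the minimum, while Slc5a4b (8 counts), Slc5a7 (5), Slc2a7 (5) and Slc16a8 (1) lay just outside it. Of the 35 carriers, 33 passed the filter on low counts and were tested, and Slc5a4a and Slc5a5 did not pass.

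RNA sequencing was done on tissue microdissected from kidneys of male C57BL/6 mice of the iKspCre-Pkd1del line. These mice carry a tamoxifen-inducible Cre that is active in the kidney and loxP sites around exons 2 to 11 of Pkd1, the gene most often mutated in human polycystic kidney disease. All animals received 12.5 mg/kg tamoxifen by mouth on postnatal days 18 and 19 and were taken when imaging showed mild cystic disease. The labels give an age of 269 for kidneys 1 and 3 and of 297 for kidney 2, without a unit. The 3 region types, non-cystic, F4/80-low cystic and F4/80-high cystic, all came from such Pkd1 knockout kidneys; F4/80, the product of Adgre1, marks macrophages. Wild-type kidneys were not analysed here, so the non-cystic regions are the reference. Each of 3 kidneys gave 2 libraries per region type, and these were summed, so that every value below is 1 of 9 sums and n is 3 kidneys per region type. The labels do not say whether the kidneys came from separate mice. The p-values measure only how the differences between region types vary among these kidneys.

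Glucose filtered by the glomerulus is taken back by the proximal tubule. The sodium-coupled carrier SGLT2 (Slc5a2) works in its early part and SGLT1 (Slc5a1) in its late part, and glucose leaves the cell into the blood by the facilitative carriers GLUT2 (Slc2a2) and GLUT1 (Slc2a1). The same cells recover lactate with the sodium-coupled carriers SMCT2 (Slc5a12, mainly early) and SMCT1 (Slc5a8, mainly late), while the Slc16 family holds the proton-linked carriers of lactate and pyruvate as well as carriers of aromatic amino acids, creatine and carnitine.

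Library totals ran from 5366651 to 9188813 counts. Pkd1 had 24 to 141 counts in every library, but every library is from a knockout and the counts include exons that were not deleted, so this checks neither genotype nor labels. Adgre1 had 1.86 to 3.66 CPM (read counts relative to the scaled library size) in the non-cystic sums, 5.27 to 8.41 CPM in the F4/80-low sums and 44.0 to 71.1 CPM in the F4/80-high sums; the regions were chosen on this protein, so the order is a check and no finding. A proximal tubule list of 10 genes, none of them a carrier of these 3 families, summed to 17053 to 22899 CPM in the non-cystic sums, to 12105 to 16320 CPM in the F4/80-low sums and to 519 to 3079 CPM in the F4/80-high sums. The F4/80-high sum of kidney 3 stood apart, with 519 CPM of these markers against 2662 and 3079 in kidneys 1 and 2. The replicate 2 library of the F4/80-low region of kidney 2 also stood apart from its partner, with Slc5a2 at 43.5 against 170 CPM. Of the other marker lists, 5 of 5 fibroblast and 4 of 5 smooth muscle genes rose in F4/80-high against non-cystic regions. Lower were 3 of 4 thick ascending limb, 3 of 4 distal tubule, 2 of 4 intercalated, 1 of 4 principal cell and 5 of 5 erythrocyte genes. Of the endothelial genes 1 of 5 (Pecam1) rose, and podocyte genes were not called. Over all tested genes 19.5% were lower and 19.7% higher, and the principal cell and endothelial counts lay near these shares.

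In F4/80-high cystic regions most of the carriers were lower than in non-cystic tissue of the same kidneys. Among these were Slc2a2, Slc2a5, Slc5a8 and Slc5a12. Slc5a2 was lower in 3 of 3 kidneys with no overlap of the sums, but it was not called. Slc5a1 and Slc2a1, whose sums overlapped, were not called either. Of 33 tested carriers, 19 fell and 2 rose at a Benjamini-Hochberg adjusted p below 0.05 (edgeR quasi-likelihood test over all 16034 tested genes); over all tested genes 19.5% were lower, 19.7% higher and 39.2% either. The median log2 fold change was -1.52 for the carriers and 0.04 for all tested genes. All 21 called carriers moved the same way in 3 of 3 kidneys. Without kidney 1 the count of lower carriers was 13, without kidney 2 it was 20 and without kidney 3 it was 18. Over all tested genes 9.93%, 13.2% and 17.8% were lower in the same fits. Scaled by total counts alone, 15 carriers were lower and 5 higher, and over all genes 9.12% were lower and 41.2% higher.

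Summed over the 35 carriers, the level was 1883, 1472 and 1751 CPM in the non-cystic sums of kidneys 1, 2 and 3, 1536, 1117 and 1306 CPM in the F4/80-low sums and 609, 660 and 295 CPM in the F4/80-high sums. Every F4/80-high sum lay below every other sum, and within each kidney the order was non-cystic, F4/80-low, F4/80-high. The proximal tubule markers moved the same way, with 10 of 10 lower in F4/80-high than in non-cystic regions (median log2 fold change -2.97). None was at 0 in any region type, and 19.5% of all tested genes were lower in that comparison. In non-cystic libraries 10.6% to 15.4% of the counts fell on mitochondrial genes, against 7.71% to 11.2% in F4/80-low libraries and 1.49% to 4.06% in F4/80-high libraries. Spp1 alone held 0.0433% to 0.332%, 0.241% to 8.90% and 6.41% to 14.1% in the same order. Their part in the carriers' differences was not tested. In bulk tissue, fewer cells of a type and less RNA per cell cannot be told apart, and the part of either in these differences was not tested.

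**Figure D1:**
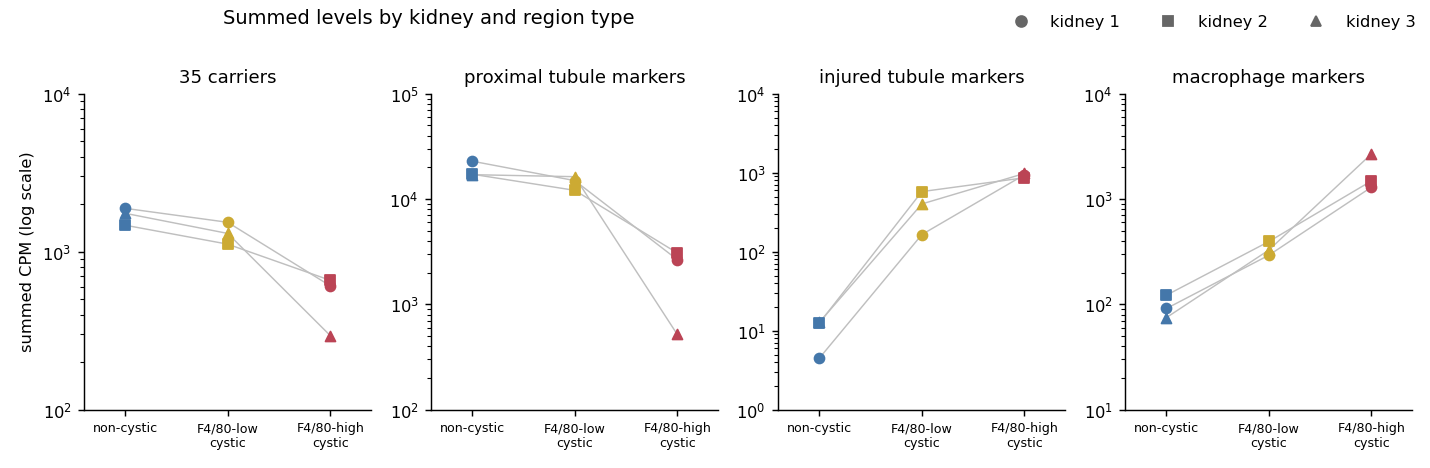
Summed level in CPM (log scale) of the 35 carriers and of the proximal tubule, injured tubule and macrophage marker lists in the 3 region types, 1 point per kidney, with lines joining the sums of a kidney. The carriers and the proximal tubule markers are lowest in the F4/80-high sums, with kidney 3 at 295 and 519 CPM, while the injured tubule and macrophage markers are highest there. The macrophage list includes Adgre1, on whose protein the regions were chosen.

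F4/80-high and F4/80-low cystic regions also differed. In this comparison 15 of 33 carriers fell and 1 rose, where 14.0% of all tested genes were lower and 10.3% higher; the median was -1.15 for the carriers and 0.04 for all genes, and all 16 called carriers moved the same way in 3 kidneys. This count rests on kidney 1: without it 4 carriers were lower, as the call rate over all genes fell to 3.19% lower and 2.86% higher. Without F4/80-high kidney 3 replicate 2 the count was 10, and 12.0% of all tested genes were lower and 8.51% higher. Between F4/80-low and non-cystic regions no carrier passed the edgeR test, where 1.51% of all tested genes were higher and 0.0249% lower; at an unadjusted p below 0.05, 1 carrier was higher and 3 were lower, and the DESeq2 Wald test called 2 lower, Slc2a9 (adjusted p = 0.0105) and Slc5a12 (adjusted p = 0.0275). The 3 comparisons share samples, so their results are not independent of each other.

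Counted without a test, the F4/80-high sums of 21 of 35 carriers lay wholly below the non-cystic sums and those of 4 wholly above, where 25.6% and 26.8% of all tested genes did so. Against the F4/80-low sums, 16 lay wholly below and 2 above (22.1% and 22.0% of all tested genes). For F4/80-low against non-cystic, 2 lay below, Slc2a9 and Slc16a7, and 0 above (6.69% and 10.5% of all tested genes).

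**Figure D2:**
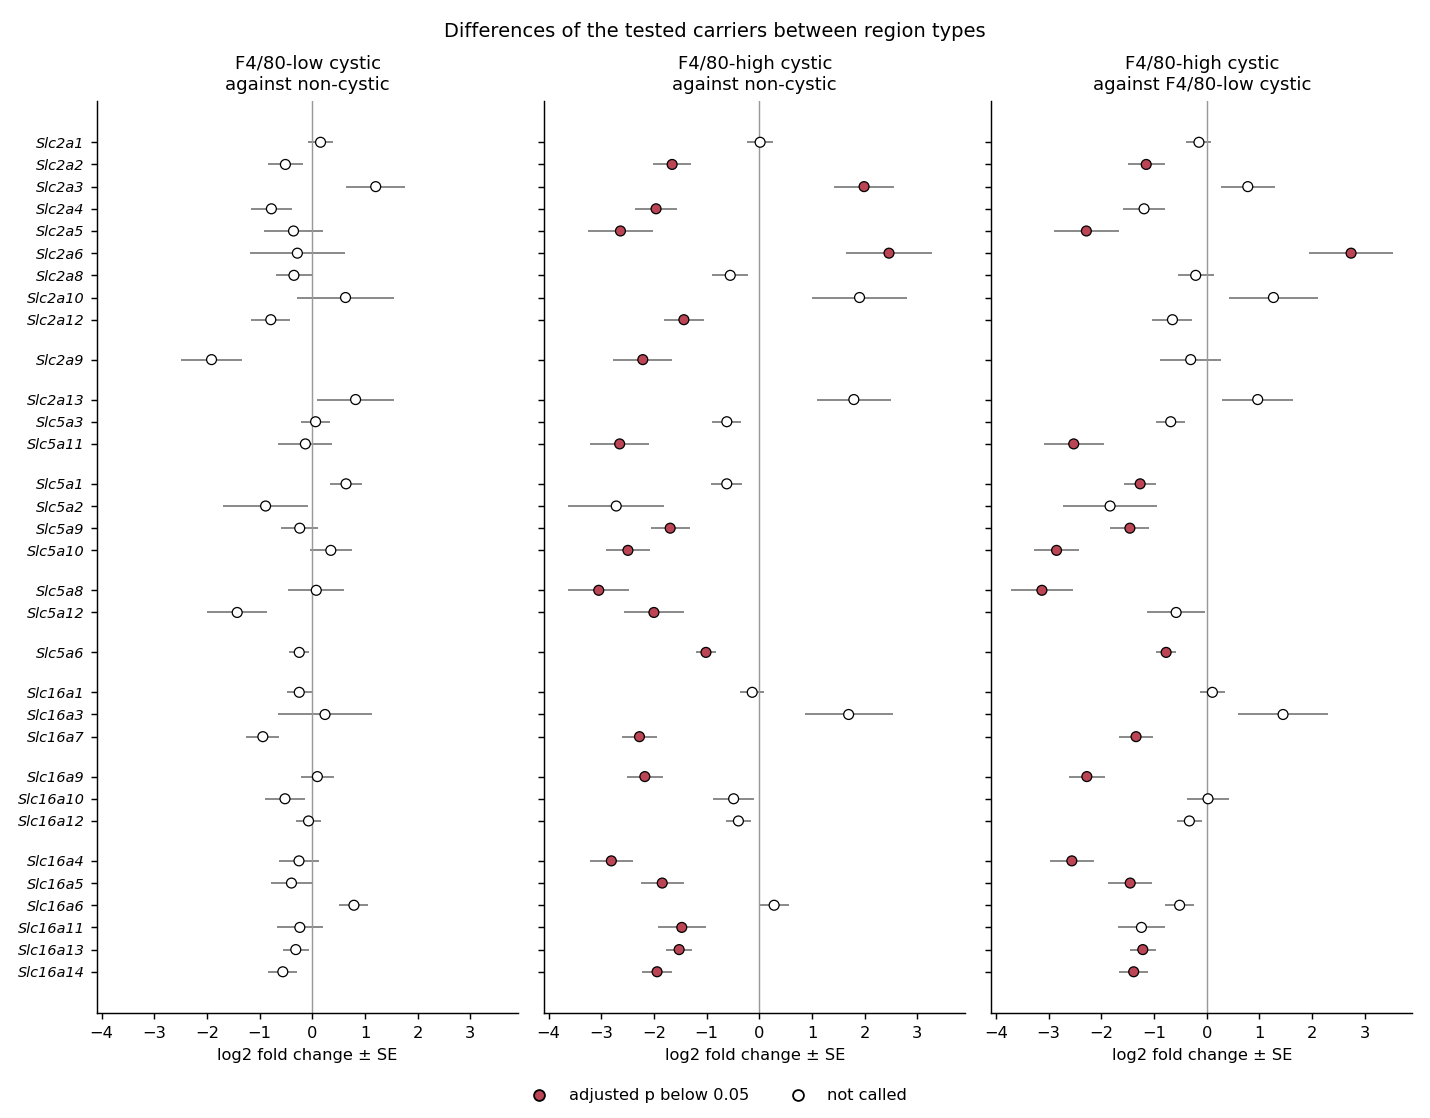
Log2 fold change with its standard error for 32 of the 33 tested carriers in the 3 comparisons, grouped by role; filled points have an edgeR adjusted p below 0.05. No point is filled for F4/80-low against non-cystic, 20 are for F4/80-high against non-cystic and 15 for F4/80-high against F4/80-low.

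Slc5a2 (ENSMUSG00000030781, GRCm38 chromosome 7, 128265657 to 128272430) had the highest level per kilobase of exon of all 35 carriers in each region type, with a mean of 105 ± 20.7 CPM per kb (SD, n = 3) in the non-cystic sums, of 61.9 ± 35.8 in the F4/80-low sums and of 21.0 ± 17.5 in the F4/80-high sums, where its range overlapped that of Slc5a12 (14.9 ± 9.21). Its level was 373, 267 and 272 CPM in the non-cystic sums of kidneys 1 to 3, 299, 114 and 124 CPM in the F4/80-low sums and 74.6, 103 and 4.86 CPM in the F4/80-high sums. The F4/80-high and non-cystic sums did not overlap, and the F4/80-high sum of kidney 3 was far below the rest of its group. The log2 fold change of -2.72 ± 0.91 (SE) for F4/80-high against non-cystic did not pass the threshold (adjusted p = 0.0558, unadjusted p = 0.0226). It passed without kidney 3, at -1.77 (adjusted p = 0.0249), without kidney 2, at -3.84 (adjusted p = 0.0451), and with DESeq2, at -2.73 (adjusted p = 0.00938). It also passed without each of 5 single libraries, with adjusted p from 0.0309 to 0.0485: non-cystic kidney 3 replicate 1, F4/80-low kidney 2 replicate 2 and kidney 3 replicate 1, and F4/80-high kidney 1 replicate 2 and kidney 3 replicate 1. The value against F4/80-low was -1.83 ± 0.89 (adjusted p = 0.188), and it passed with 18 libraries and the kidney as block (-1.72, adjusted p = 0.0494). Slc5a2 overlaps an exon of BC017158 on the other strand, and the library kit does not mark the strand, so its counts may hold reads of that gene.

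Slc5a1 (chromosome 5, 33104219 to 33162870), which encodes SGLT1, had its highest group mean in the F4/80-low sums. It had 48.5, 29.0 and 22.7 CPM in the non-cystic sums, 35.6, 62.0 and 53.9 CPM in the F4/80-low sums and 22.6, 25.6 and 16.6 CPM in the F4/80-high sums. In kidneys 2 and 3 the F4/80-low sum was the highest of the 3 region types, and in kidney 1 the non-cystic sum was. The kidney 2 peak rested on replicate 2, at 96.2 CPM. Replicate 1 had 33.4 CPM, against 33.5 and 24.9 CPM in the non-cystic libraries of that kidney. In kidney 3 both F4/80-low libraries (57.0 and 48.95 CPM) lay above both non-cystic ones (16.2 and 34.8 CPM). Slc5a1 fell in F4/80-high against F4/80-low regions by 1.26 ± 0.30 on the log2 scale (adjusted p = 0.0169), while the value against non-cystic was -0.62 ± 0.30 (adjusted p = 0.130), which passed without non-cystic kidney 3 replicate 1 (-0.81, adjusted p = 0.0396). The call against F4/80-low was lost without kidney 2 (-1.26, adjusted p = 0.0652), without kidney 3 (-1.01, adjusted p = 0.0885) and without F4/80-low kidney 1 replicate 2 (-1.14, adjusted p = 0.0587).

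The other sodium-coupled sugar carriers were lower in F4/80-high regions. Slc5a10, which encodes the fructose and mannose carrier SGLT5, had 56.8, 47.4 and 25.6 CPM in the non-cystic, 43.6, 49.1 and 60.9 CPM in the F4/80-low and 7.10, 13.1 and 3.65 CPM in the F4/80-high sums. It fell by 2.50 ± 0.42 against non-cystic (adjusted p = 0.00308) and by 2.85 ± 0.43 against F4/80-low regions (adjusted p = 0.00449), and kept both calls in all 31 alternative analyses. Its counts may hold reads of Fam83g and Grap, which overlap it on the other strand. Slc5a9, which encodes the mannose carrier SGLT4, had 35.5, 18.4 and 30.8 CPM in the non-cystic, 33.0, 16.6 and 23.2 CPM in the F4/80-low and 12.5, 10.3 and 3.81 CPM in the F4/80-high sums. In each kidney the F4/80-high sum was the lowest. It fell by 1.69 ± 0.37 (adjusted p = 0.00759) and by 1.46 ± 0.37 (adjusted p = 0.0233) against the same 2 references. Both calls were lost without kidney 1 (adjusted p = 0.0717 and 0.141) and without F4/80-high kidney 3 replicate 2 (adjusted p = 0.0678 and 0.126), and the second also with no filter on low counts (adjusted p = 0.0567). Slc5a4a, a member of the SGLT3 group with a near-identical neighbour in Slc5a4b, had 0 to 3 counts in each of the 9 sums.

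**Figure D3:**
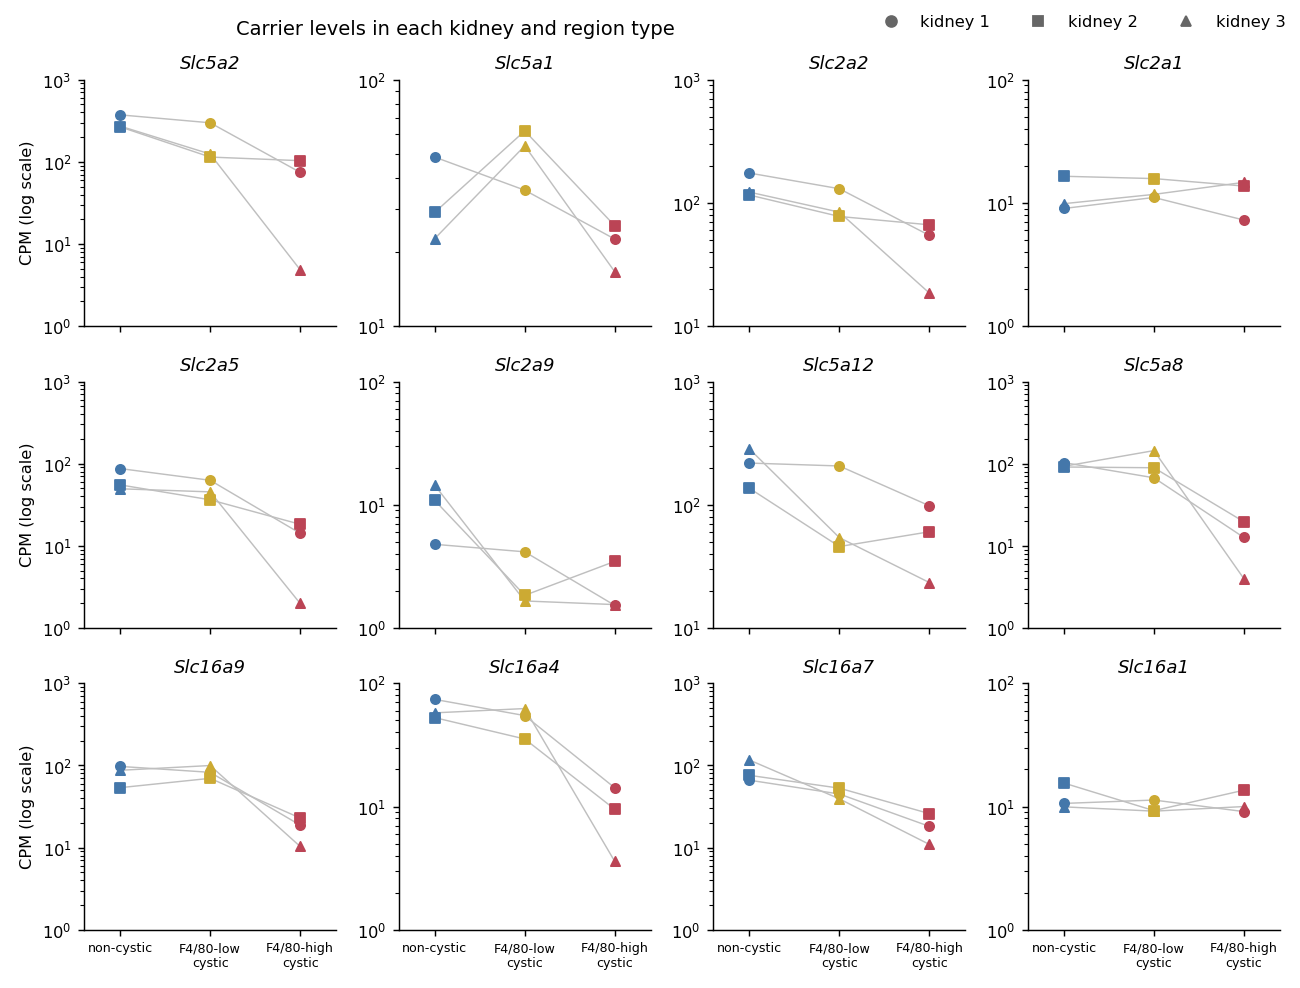
Level in CPM (log scale) of 12 carriers in the 3 region types, 1 point per kidney, with lines joining the sums of a kidney. Slc5a2, Slc2a2, Slc2a5 and Slc5a8 are lowest in the F4/80-high sum of kidney 3, Slc2a1 lies between 7.26 and 16.5 CPM and Slc16a1 between 9.10 and 15.5 CPM in all 9 sums, and Slc5a1 peaks in the F4/80-low sums of kidneys 2 and 3. The Slc5a1 peak of kidney 2 rests on replicate 2, at 96.2 CPM against 33.4 CPM in replicate 1.

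Among the facilitative sugar carriers, 4 of 9 fell and 2 rose in F4/80-high against non-cystic regions, where 19.5% of all tested genes were lower and 19.7% higher. Slc2a2 (chromosome 3, 28697903 to 28731359), the GLUT2 gene of the basolateral membrane, had 175, 116 and 122 CPM in the non-cystic sums, 130, 77.6 and 84.2 CPM in the F4/80-low sums and 54.5, 66.4 and 18.6 CPM in the F4/80-high sums. No F4/80-high sum reached any other sum. Slc2a2 fell by 1.66 ± 0.35 against non-cystic (adjusted p = 0.0066), a call lost without kidney 1 (-1.65, adjusted p = 0.0781), and by 1.15 ± 0.35 against F4/80-low regions (adjusted p = 0.0448). The second call lay close to the threshold and was lost in 14 of 31 alternatives, with values from -1.35 to -0.68: 5 other settings, the omission of kidney 1 (-1.09, adjusted p = 0.232) or kidney 3 (-0.72, adjusted p = 0.0666), and 7 single libraries with adjusted p from 0.0512 to 0.131 (non-cystic kidney 1 replicate 1 and kidney 2 replicate 1, F4/80-low kidney 1 replicate 2 and kidney 2 replicate 1, and replicate 2 of all 3 F4/80-high kidneys).

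Slc2a1 (chromosome 4, 119108711 to 119137983), the GLUT1 gene, had 9.01, 16.5 and 9.86 CPM in the non-cystic, 11.1, 15.8 and 11.7 CPM in the F4/80-low and 7.26, 13.7 and 14.7 CPM in the F4/80-high sums. The 3 groups overlapped, and the F4/80-high sums differed from the non-cystic ones by 0.01 ± 0.24 on the log2 scale (adjusted p = 0.973) and from the F4/80-low ones by -0.15 ± 0.24 (adjusted p = 0.696); the F4/80-low sums differed from the non-cystic ones by 0.16 ± 0.24 (adjusted p = 0.896). Slc2a1 overlaps Gm12868 on the other strand.

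Slc2a5, the fructose carrier GLUT5, had 87.1, 55.2 and 49.5 CPM in the non-cystic sums, 62.8, 36.3 and 45.4 CPM in the F4/80-low sums and 14.2, 18.3 and 1.99 CPM in the F4/80-high sums. The F4/80-high sums were all below the other 6. Slc2a5 fell by 2.64 ± 0.62 against non-cystic (adjusted p = 0.0154) and by 2.28 ± 0.62 against F4/80-low regions (adjusted p = 0.0399). Both calls were lost without kidney 1 (adjusted p = 0.0884 and 0.152) and without F4/80-low kidney 2 replicate 1 (adjusted p = 0.0588 and 0.188). The second was also lost without F4/80-low kidney 1 replicate 2, non-cystic kidney 2 replicate 2, F4/80-high kidney 2 replicate 1 or F4/80-high kidney 3 replicate 2, with adjusted p from 0.0509 to 0.0916, and under 3 other settings, of which no filter on low counts (adjusted p = 0.173) also ended the first (adjusted p = 0.0941).

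Slc2a4, the insulin-responsive carrier GLUT4, had 7.42, 10.6 and 11.3 CPM in the non-cystic, 6.46, 8.74 and 2.93 CPM in the F4/80-low and 1.58, 4.61 and 2.04 CPM in the F4/80-high sums. It fell by 1.96 ± 0.40 in F4/80-high against non-cystic regions (adjusted p = 0.00392) and kept the call in all alternatives; the value against F4/80-low, -1.19 ± 0.39, was not called (adjusted p = 0.0535) but passed in 9 alternatives, among them without kidney 3 (-1.40, adjusted p = 0.0154) and without 4 single libraries (F4/80-high kidney 2 replicate 1, F4/80-low kidney 3 replicate 1, non-cystic kidney 2 replicate 1 and kidney 3 replicate 1). Slc2a12, which encodes GLUT12, had 8.31, 5.71 and 8.54 CPM in the non-cystic, 7.41, 3.48 and 2.86 CPM in the F4/80-low and 2.58, 3.42 and 2.27 CPM in the F4/80-high sums. It fell by 1.43 ± 0.38 (adjusted p = 0.0137), a call lost without kidney 1 (-1.35, adjusted p = 0.0722) and with total counts as scaling (-0.83, adjusted p = 0.124), and it shares exon positions with Tbpl1 on the other strand. Slc2a8, which encodes an intracellular carrier, had a log2 difference of -0.55 ± 0.34 (adjusted p = 0.225).

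Both carriers that rose had low counts. Slc2a6, the GLUT6 gene, had 6, 1 and 6 counts in the non-cystic sums, 4, 5 and 4 counts in the F4/80-low sums and 33, 81 and 16 counts in the F4/80-high sums, so that all 3 F4/80-high sums lay above the other 6. It rose by 2.46 ± 0.82 against non-cystic (adjusted p = 0.0377) and by 2.74 ± 0.80 against F4/80-low regions (adjusted p = 0.034). Without kidney 2 the values were 1.32 (adjusted p = 0.340) and 2.10 (adjusted p = 0.189), and without kidney 1 they were 2.94 (adjusted p = 0.124) and 2.81 (adjusted p = 0.151). Single libraries also ended the calls. Against non-cystic there were 6, with adjusted p from 0.0508 to 0.0927: replicate 2 of all 3 non-cystic kidneys, F4/80-low kidney 1 replicate 1 and kidney 2 replicate 1, and F4/80-high kidney 1 replicate 2. Against F4/80-low there were 5, with adjusted p from 0.051 to 0.0767: non-cystic kidney 1 replicate 1, F4/80-low kidney 1 replicate 2, kidney 2 replicate 1 and kidney 3 replicate 1, and F4/80-high kidney 1 replicate 2.

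Slc2a3, the GLUT3 gene, which neurons and white blood cells use, had 6, 17 and 4 counts in the non-cystic, 17, 31 and 20 in the F4/80-low and 51, 42 and 53 in the F4/80-high sums. The non-cystic and F4/80-high counts did not overlap. Slc2a3 rose by 1.99 ± 0.56 in F4/80-high against non-cystic regions (adjusted p = 0.0191), and the call was lost without kidney 1 (1.80, adjusted p = 0.135), without kidney 3 (1.48, adjusted p = 0.0796), without F4/80-high kidney 2 replicate 1 (1.80, adjusted p = 0.0502) and without non-cystic kidney 2 replicate 1 (1.76, adjusted p = 0.0511). Beside these rises, the macrophage list of 10 genes summed to 75.0 to 122 CPM in the non-cystic sums, to 294 to 396 CPM in the F4/80-low sums and to 1298 to 2687 CPM in the F4/80-high sums, with no marker at 0. In F4/80-high against non-cystic regions 10 of 10 rose, where 19.7% of all tested genes were higher. The list includes Adgre1, and the regions were chosen on its protein F4/80, so the rise of this list is no finding. The T and B cell list of 7 genes summed to 6.99 to 10.8, 9.92 to 14.1 and 36.6 to 48.4 CPM, and the neutrophil list of 5 genes to 3.45 to 10.8, 0.827 to 7.69 and 5.84 to 29.95 CPM, in the same order; the part of these cells in the rises was not tested. Slc2a10, the GLUT10 gene, had a log2 difference of 1.90 ± 0.91 (adjusted p = 0.125), from 6, 12 and 0 counts to 29, 20 and 36, and passed in 2 of 31 alternatives.

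Slc2a9, the urate carrier GLUT9, was the carrier with the lowest value in F4/80-low regions relative to non-cystic tissue. It had 4.77, 10.8 and 14.4 CPM in the non-cystic, 4.15, 1.84 and 1.66 CPM in the F4/80-low and 1.53, 3.47 and 1.55 CPM in the F4/80-high sums. Non-cystic sums were above all others, though in kidney 1 by little. Slc2a9 fell by 2.21 ± 0.56 in F4/80-high regions (adjusted p = 0.0131), a call lost without non-cystic kidney 1 replicate 1 (-2.05, adjusted p = 0.0544). The F4/80-low sums differed from the non-cystic ones by -1.91 ± 0.58, which was not called (adjusted p = 0.202), and it passed without F4/80-low kidney 1 replicate 1 (-2.34, adjusted p = 0.0321).

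The inositol carriers differed among themselves. Slc5a11, the SMIT2 gene, had 49.7, 33.0 and 27.6 CPM in the non-cystic, 40.0, 24.7 and 31.6 CPM in the F4/80-low and 6.00, 11.5 and 1.55 CPM in the F4/80-high sums. It fell by 2.65 ± 0.56 against non-cystic (adjusted p = 0.0102) and by 2.52 ± 0.57 against F4/80-low regions (adjusted p = 0.0218); both calls were lost without kidney 1 (adjusted p = 0.0836 and 0.122) and with no filter on low counts (adjusted p = 0.0728 and 0.113). Slc5a3, the SMIT1 gene, through which cells take up inositol as an osmolyte, had a log2 difference of -0.62 ± 0.27 against non-cystic (adjusted p = 0.103) and of -0.68 ± 0.28 against F4/80-low regions (adjusted p = 0.101). Both passed without F4/80-high kidney 1 replicate 1 (adjusted p = 0.0133 and 0.0179). Slc5a3 lies within Mrps6 on the same strand, and how the counting treated reads shared by the 2 genes is not known. Slc2a13, a proton-coupled inositol carrier, had 1.79 ± 0.70 against non-cystic (adjusted p = 0.0689), with 1.24 to 2.10 CPM in F4/80-high sums; it passed in 4 alternatives, among them without non-cystic kidney 3 replicate 1 (2.17, adjusted p = 0.0427).

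Both sodium-coupled lactate carriers fell in F4/80-high regions, but their F4/80-low values were unlike. Slc5a8 (chromosome 10, 88885992 to 88929515), the SMCT1 gene, had 103, 91.1 and 92.9 CPM in the non-cystic, 67.3, 89.2 and 144 CPM in the F4/80-low and 12.6, 19.6 and 3.98 CPM in the F4/80-high sums. The non-cystic and F4/80-low sums overlapped, and the F4/80-high sums were far below both. Slc5a8 fell by 3.05 ± 0.58 against non-cystic (adjusted p = 0.00694) and by 3.13 ± 0.59 against F4/80-low regions (adjusted p = 0.0126). The second call was lost without kidney 1 (-3.49, adjusted p = 0.0625), and both were lost with no filter on low counts (adjusted p = 0.0522 and 0.0722).

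Slc5a12 (chromosome 2, 110597298 to 110647779), the SMCT2 gene, had 218, 136 and 284 CPM in the non-cystic, 206, 45.8 and 54.1 CPM in the F4/80-low and 98.2, 60.3 and 23.4 CPM in the F4/80-high sums. In kidneys 2 and 3 the F4/80-low sums were already below every non-cystic sum, and in kidney 2 the F4/80-low sum was below the F4/80-high sum. Slc5a12 fell by 2.00 ± 0.58 in F4/80-high against non-cystic regions (adjusted p = 0.0308). The call was lost in 6 of 31 alternatives, among them the omission of kidney 3 (-1.17, adjusted p = 0.0647), of F4/80-high kidney 3 replicate 2 (-2.42, adjusted p = 0.115) and of F4/80-low kidney 2 replicate 1 (-1.96, adjusted p = 0.0774). The F4/80-low sums differed from the non-cystic ones by -1.43 ± 0.56 (adjusted p = 0.390) and the F4/80-high sums from the F4/80-low ones by -0.58 ± 0.55 (adjusted p = 0.488).

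Of the remaining Slc5 carriers, Slc5a6, which takes up biotin and pantothenate, had 35.2, 28.3 and 33.9 CPM in the non-cystic, 29.2, 22.9 and 29.9 CPM in the F4/80-low and 18.3, 17.7 and 12.2 CPM in the F4/80-high sums. Its sums were close to each other within each region type. It fell by 1.02 ± 0.20 against non-cystic (adjusted p = 0.00319) and by 0.77 ± 0.20 against F4/80-low regions (adjusted p = 0.0203). With total counts as scaling neither passed (-0.42, adjusted p = 0.1098, and -0.29, adjusted p = 0.281). The second was also lost without kidney 1 (adjusted p = 0.112), without kidney 3 (adjusted p = 0.0816), without F4/80-high kidney 1 replicate 2 (adjusted p = 0.0654) without F4/80-low kidney 2 replicate 1 (adjusted p = 0.0608) and with the compared region types fitted alone (adjusted p = 0.0671). Slc5a6 overlaps Atraid on the other strand. Slc5a5, the iodide carrier of the thyroid, had 0 to 3 counts per sum.

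Of the 3 proton-linked carriers of lactate and pyruvate, only Slc16a7 was called. Over all tested genes 39.2% were called in F4/80-high against non-cystic regions and 24.3% against F4/80-low regions. Slc16a7, the MCT2 gene, whose product takes up pyruvate and lactate with high affinity, had 66.2, 75.9 and 117 CPM in the non-cystic, 44.9, 52.9 and 39.3 CPM in the F4/80-low and 18.2, 25.9 and 10.9 CPM in the F4/80-high sums. The sums of the 3 region types did not overlap, though single libraries of F4/80-low regions overlapped those of both other types. Slc16a7 fell by 2.28 ± 0.33 against non-cystic (adjusted p = 0.00104), in all alternatives, and by 1.34 ± 0.32 against F4/80-low regions (adjusted p = 0.0171). The second call was lost without kidney 1 (-1.36, adjusted p = 0.107), without F4/80-low kidney 2 replicate 1 (-0.89, adjusted p = 0.217), without F4/80-low kidney 3 replicate 2 (-1.13, adjusted p = 0.0806), without F4/80-high kidney 2 replicate 2 (-1.18, adjusted p = 0.0582) and with total counts as scaling (-0.88, adjusted p = 0.0585).

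Slc16a1, the widely expressed MCT1 gene, had 10.6, 15.5 and 9.94 CPM in the non-cystic, 11.3, 9.26 and 9.18 CPM in the F4/80-low and 9.10, 13.6 and 10.0 CPM in the F4/80-high sums. The groups overlapped, and the F4/80-high sums differed from the non-cystic ones by -0.14 ± 0.23 on the log2 scale (adjusted p = 0.673). Slc16a3, the MCT4 gene, whose product exports lactate from glycolytic cells, had 2, 15 and 5 counts in the non-cystic, 14, 10 and 2 in the F4/80-low and 15, 32 and 50 in the F4/80-high sums. The scaled ranges overlapped, at 0.177 to 1.10 CPM in non-cystic and 0.789 to 2.76 CPM in F4/80-high sums. Its log2 fold change of 1.69 ± 0.84 was not called (adjusted p = 0.138) and passed without non-cystic kidney 2 replicate 1 (2.77, adjusted p = 0.0332). The count ratio of Slc16a7 to Slc16a1, chosen after the values were seen and free of library scaling, was 6.24, 4.89 and 11.7 in the non-cystic, 3.98, 5.72 and 4.28 in the F4/80-low and 1.99, 1.91 and 1.09 in the F4/80-high sums.

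Slc16a9, which carries carnitine, had 97.4, 53.7 and 87.4 CPM in the non-cystic, 82.5, 69.8 and 99.9 CPM in the F4/80-low and 18.8, 22.9 and 10.3 CPM in the F4/80-high sums. It fell by 2.18 ± 0.34 against non-cystic (adjusted p = 0.00158) and by 2.27 ± 0.34 against F4/80-low regions (adjusted p = 0.00312); the second call was lost without kidney 1 (-2.33, adjusted p = 0.0526). Slc16a9 overlaps Gm7097 on the other strand. Slc16a12, a creatine carrier, had a log2 difference of -0.40 ± 0.24 (adjusted p = 0.208), and Slc16a10, which carries aromatic amino acids, had -0.49 ± 0.39 (adjusted p = 0.347).

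Of the other 6 Slc16 genes, 5 fell in F4/80-high against non-cystic regions, where 19.5% of all tested genes were lower and 19.7% higher. Slc16a4, the MCT5 gene, had 74.1, 52.7 and 57.6 CPM in the non-cystic, 54.7, 35.3 and 62.4 CPM in the F4/80-low and 14.2, 9.51 and 3.59 CPM in the F4/80-high sums. It fell by 2.81 ± 0.41 (adjusted p = 0.00167) and by 2.56 ± 0.41 against F4/80-low regions (adjusted p = 0.00552), in all alternatives. Slc16a14 had 42.5, 111 and 107 CPM in the non-cystic, 44.3, 67.3 and 56.3 CPM in the F4/80-low and 16.4, 36.6 and 14.7 CPM in the F4/80-high sums. Its non-cystic level in kidney 1 was well under that of the other kidneys, yet it fell by 1.94 ± 0.29 (adjusted p = 0.000963) against non-cystic and by 1.38 ± 0.28 (adjusted p = 0.00853) against F4/80-low regions, the second lost without kidney 1 (-1.35, adjusted p = 0.0616) and with no kidney block (-1.31, adjusted p = 0.0566). Slc16a13 had 24.7, 18.2 and 28.0 CPM in the non-cystic, 20.3, 18.1 and 18.7 CPM in the F4/80-low and 7.94, 10.5 and 6.24 CPM in the F4/80-high sums. The F4/80-high sums again lay below the other 6. It fell by 1.52 ± 0.25 (adjusted p = 0.00142) against non-cystic and by 1.21 ± 0.25 (adjusted p = 0.00827) against F4/80-low regions; the second was lost without kidney 1 (adjusted p = 0.0901) without F4/80-high kidney 3 replicate 2 (adjusted p = 0.0581) and with total counts as scaling (adjusted p = 0.0535).

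Slc16a5, the MCT6 gene, had 8.93, 16.9 and 14.6 CPM in the non-cystic, 11.9, 10.3 and 7.45 CPM in the F4/80-low and 2.16, 8.07 and 2.32 CPM in the F4/80-high sums. It fell by 1.85 ± 0.41 against non-cystic (adjusted p = 0.00687), lost without non-cystic kidney 1 replicate 1 (-1.56, adjusted p = 0.0588), and by 1.45 ± 0.41 against F4/80-low regions (adjusted p = 0.0323). The second call was lost in 9 of 31 alternatives, among them the omission of kidney 1 (-0.91, adjusted p = 0.212), of kidney 3 (-1.35, adjusted p = 0.0875) and of 4 single libraries with adjusted p from 0.0534 to 0.1103 (non-cystic kidney 1 replicate 1, F4/80-low kidney 3 replicate 1, F4/80-high kidney 2 replicate 2 and kidney 3 replicate 2). Slc16a11, the MCT11 gene, had 9.19, 4.10 and 5.44 CPM in the non-cystic, 4.96, 4.40 and 6.09 CPM in the F4/80-low and 1.95, 3.52 and 1.22 CPM in the F4/80-high sums. It fell by 1.47 ± 0.46 against non-cystic (adjusted p = 0.0279), lost without kidney 1 (-1.06, adjusted p = 0.239) without kidney 3 (-1.22, adjusted p = 0.0594) and with total counts as scaling (adjusted p = 0.113). For Slc16a6 the F4/80-high sums differed from the non-cystic ones by 0.28 ± 0.28 (adjusted p = 0.454), which passed with total counts as scaling (0.90, adjusted p = 0.0259), and the F4/80-low sums by 0.79 ± 0.28 (adjusted p = 0.266). Slc16a5 and Slc16a6 overlap genes on the other strand (Gm11695, and Amz2 and Arsg).

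The pairs of carriers that divide a task between early and late proximal tubule were set against each other as count ratios within a sum, which do not depend on library scaling; these ratios were chosen after the values were seen and are given as a description. Slc5a2 over Slc5a1 was 7.70, 9.21 and 12.0 in the non-cystic, 8.39, 1.85 and 2.31 in the F4/80-low and 3.31, 4.05 and 0.292 in the F4/80-high sums. The lowest ratio in a single non-cystic library was 5.76, and of the F4/80-low sums that of kidney 1 alone lay above it. The F4/80-low libraries of kidney 2 were far apart, at 5.10 in replicate 1 and 0.452 in replicate 2, while those of kidney 3 had 2.715 and 1.82. Slc2a2 over Slc2a1 was 19.4, 7.04 and 12.4 in the non-cystic, 11.8, 4.93 and 7.17 in the F4/80-low and 7.51, 4.85 and 1.26 in the F4/80-high sums. Slc5a12 over Slc5a8 moved in another way, from 2.12, 1.50 and 3.06 in the non-cystic to 3.07, 0.513 and 0.375 in the F4/80-low and 7.78, 3.08 and 5.88 in the F4/80-high sums. For the lactate pair the F4/80-high sums lay above the non-cystic ones by as little as 3.08 against 3.06, and single libraries overlapped (1.19 to 10.6 against 1.20 to 5.003). For Slc5a2 over Slc5a1 the highest F4/80-high library, at 4.98, lay below the lowest non-cystic one.

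**Figure D4:**
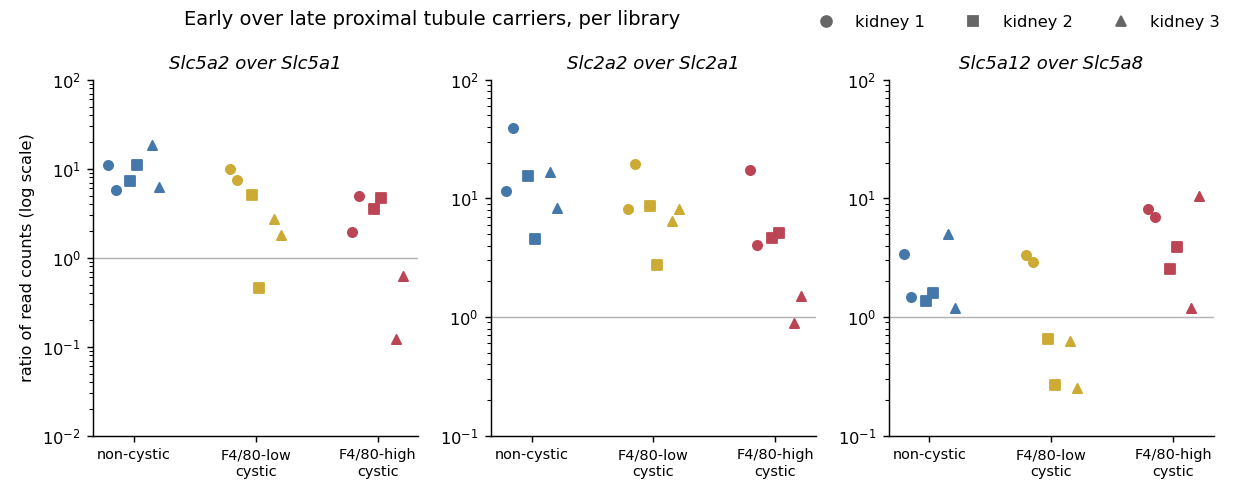
Ratio of read counts (log scale) in each of the 18 libraries for Slc5a2 over Slc5a1, Slc2a2 over Slc2a1 and Slc5a12 over Slc5a8; colours mark the region type and symbols the kidney, and the grey line marks equal counts. In the F4/80-low libraries of kidneys 2 and 3 Slc5a12 lies below Slc5a8, while in the F4/80-high libraries it lies above it.

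The F4/80-low sums of the 3 kidneys were not alike for several carriers. Slc5a2 and Slc5a12, chosen here after their values were seen, were lower in both libraries of kidneys 2 and 3 than in either library of kidney 1. Slc2a9 was also highest in kidney 1, but by replicate 1 alone (5.99 CPM, against 2.19 in replicate 2), and Slc5a1 was lowest in kidney 1 as a sum, though its kidney 1 replicate 2 (44.1 CPM) lay above kidney 2 replicate 1 (33.4 CPM). Over all 35 carriers kidney 1 had the highest F4/80-low sum for 14 and the lowest for 10; it had the highest non-cystic sum for 15, Slc5a2 among them, and the lowest for 10. Over all tested genes it was highest in 35.8% and lowest in 33.3% for F4/80-low, and highest in 32.1% and lowest in 32.6% for non-cystic sums. The injured tubule list (Havcr1, Lcn2, Vcam1, Krt20 and Sox9) summed to 165 CPM in kidney 1, 578 CPM in kidney 2 and 403 CPM in kidney 3, against 4.51 to 12.8 CPM in the non-cystic and 864 to 980 CPM in the F4/80-high sums. The proximal tubule list summed to 14978, 12105 and 16320 CPM in the same 3 F4/80-low sums, and the late proximal tubule list (Slc7a13, Slc22a7, Cyp7b1 and Acy3) to 2293, 2574 and 3479 CPM. The part of injured or late proximal tubule cells in these values was not tested.

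The median log2 fold change of the carriers in F4/80-high against non-cystic regions, -1.52, was nearer to 0 than that of the proximal tubule markers, -2.97. Per 1000 CPM of the 10 markers, the 35 carriers together had 82.2, 85.4 and 103 CPM in the non-cystic, 103, 92.3 and 80.0 CPM in the F4/80-low and 229, 214 and 568 CPM in the F4/80-high sums. By this ratio, 25 of 35 carriers had all 3 F4/80-high values above all 3 non-cystic ones, 0 had all below and 10 overlapped, where 95.7% of all tested genes had all above and 0.299% all below, since the marker sum in the denominator is so much lower in F4/80-high regions. Slc5a8 was among the overlapping ones, at 4.50, 5.29 and 5.45 in non-cystic against 4.74, 6.37 and 7.67 in F4/80-high sums, and so was Slc5a2, at 16.3, 15.5 and 16.0 against 28.0, 33.6 and 9.37. Slc2a2 went in this measure from 7.63, 6.73 and 7.18 to 20.5, 21.6 and 35.8. These values describe the carriers and test nothing.

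Promoter sequences of the carriers were searched for binding motifs of factors known to act on kidney carriers. RefSeq windows of 300 bases, from 250 before to 50 after the transcript start (GRCm38.p6), held 25 of the 35 carriers. The bases before the start are shown for a pair of them: Slc2a2, a carrier that fell and has neither motif, and Slc16a1, which was not called and has the hypoxia element core. They are written 5′ to 3′ on the gene's strand, with motif letters in capitals, for chr3:28697653-28697902 (plus strand) and chr3:104638414-104638663 (plus strand).
Slc2a2: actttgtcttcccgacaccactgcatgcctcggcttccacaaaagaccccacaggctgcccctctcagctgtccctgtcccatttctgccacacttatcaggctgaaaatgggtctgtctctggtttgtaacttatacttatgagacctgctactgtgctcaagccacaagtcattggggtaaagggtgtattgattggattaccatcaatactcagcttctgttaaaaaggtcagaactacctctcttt
Slc16a1: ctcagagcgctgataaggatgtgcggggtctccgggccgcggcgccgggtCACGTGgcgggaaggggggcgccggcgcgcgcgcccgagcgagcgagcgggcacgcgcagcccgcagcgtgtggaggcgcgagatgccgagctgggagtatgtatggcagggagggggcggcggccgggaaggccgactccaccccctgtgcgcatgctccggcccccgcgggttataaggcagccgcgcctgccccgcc
The HNF4 core, searched as CAAAGTCCA on both strands, was in 0 of 25 carriers and 0.555% of all genes. The hypoxia element core, searched as ACGTG on both strands, was in 6 carriers (Slc2a1, Slc2a10, Slc5a1, Slc16a1, Slc16a3 and Slc16a12) and in 21.8% of all genes; the capitals in Slc16a1 hold the core on both strands, as overlapping matches. Of these 6 carriers 0 were called in F4/80-high against non-cystic regions, where 19.5% of all tested genes were lower and 19.7% higher. Their median log2 fold change was -0.06. Of the 17 tested carriers with a window but without the core, 12 were lower and 1 higher, with a median of -1.66. These 2 sets were formed after the results were known and also differ in base composition (G and C from 60.0% to 73.7%, and from 47.0% to 73.3%), and the motif's part was not tested. A match is a description of these letters and does not show that a factor binds.

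The genes that work with the carriers were described from a list of 35, of which 33 were tested. In F4/80-high against non-cystic regions 19 fell and 5 rose, with a median log2 fold change of -1.32, where 19.5% of all tested genes were lower and 19.7% higher. Without kidney 1 the counts were 10 and 2 (9.93% and 10.6% of all tested genes). In F4/80-high against F4/80-low regions 18 fell and 4 rose (14.0% and 10.3% of all tested genes), and without kidney 1 the counts were 2 and 0 (3.19% and 2.86%). In F4/80-low against non-cystic regions edgeR called 0, with 1 higher at an unadjusted p below 0.05, where 0.0249% of all tested genes were lower and 1.51% higher.

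Among partner proteins, 4 of 6 fell: Pdzk1, a scaffold of apical carriers (-2.30 ± 0.39, adjusted p = 0.00155), Pdzk1ip1, the MAP17 partner of SGLT2 (-1.55 ± 0.35, adjusted p = 0.00629), the scaffold Slc9a3r1 (-1.32 ± 0.23, adjusted p = 0.00175) and Bsg, the basigin chaperone of MCT1 and MCT4 (-0.85 ± 0.26, adjusted p = 0.0284). In F4/80-high against non-cystic regions 19.5% of all tested genes were lower. Pdzk1ip1 went from 1495 ± 313 (SD, n = 3) to 540 ± 262 CPM. Emb and Nptn, chaperones of the same kind, were not called (0.40 ± 0.27 and 0.26 ± 0.16, adjusted p = 0.266 and 0.213). Of the sodium pump, which keeps the gradient that the Slc5 carriers use, the genes Atp1b1 (-1.43 ± 0.35) and Fxyd2 (-2.46 ± 0.56) fell.

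The enzymes that act on sugar after entry split. Sord, which turns sorbitol into fructose, fell by 3.23 ± 0.48 (adjusted p = 0.000984), as did Khk, the fructokinase (-2.77 ± 0.47, adjusted p = 0.00178). Of the hexokinases, which trap glucose in the cell, Hk2 rose by 4.99 ± 0.75 (adjusted p = 0.000942), from 0.177, 0.22 and 0.0777 CPM in the non-cystic through 0.612, 2.96 and 1.58 CPM in the F4/80-low to 2.79, 3.27 and 10.4 CPM in the F4/80-high sums. The 3 region types overlapped only between the F4/80-low sum of kidney 2 and the F4/80-high sum of kidney 1. Non-cystic levels of Hk2 rested on very few reads, so the size of its rise is limited by depth. Hk3, an isoform of white blood cells, rose by 2.00 ± 0.63 (adjusted p = 0.0304), and Hk1 had -0.25 ± 0.28 (adjusted p = 0.511). Hk3 levels were low, at 0.848 ± 0.974 CPM (SD, n = 3) in non-cystic and 2.57 ± 1.16 CPM in F4/80-high sums, and these sums overlapped. Of the glucose release genes, G6pc, the glucose-6-phosphatase of gluconeogenic tissue, fell by 3.94 ± 0.80 (adjusted p = 0.00883) as did its transporter partner Slc37a4 (-2.31 ± 0.32, adjusted p = 0.000644), while the widely expressed G6pc3 had -0.29 ± 0.15 (adjusted p = 0.155).

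Of the lactate and pyruvate genes, Ldhd fell by 2.38 ± 0.28 (adjusted p = 0.000297) as did the mitochondrial pyruvate carrier genes Mpc1 (-2.002 ± 0.28) and Mpc2 (-1.50 ± 0.33). Ldha and Ldhb, which interconvert lactate and pyruvate, were not called (-0.65 ± 0.27, adjusted p = 0.0811, and -0.15 ± 0.37, adjusted p = 0.785). Among regulators, Hnf4a, a transcription factor of proximal tubule cells, fell (-2.06 ± 0.31), as did Mlxipl, the glucose-sensing factor ChREBP (-1.48 ± 0.21). Txnip and Arrdc4, related proteins that limit glucose uptake, rose by 0.69 ± 0.18 (adjusted p = 0.0143) and 1.38 ± 0.28 (adjusted p = 0.00405), and Nfat5, which turns on osmolyte genes, by 0.64 ± 0.16 (adjusted p = 0.0106). Hif1a had 0.08 ± 0.20 (adjusted p = 0.783), and the taurine carrier gene Slc6a6, an osmolyte gene, 0.08 ± 0.20 (adjusted p = 0.791).

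**Figure D5:**
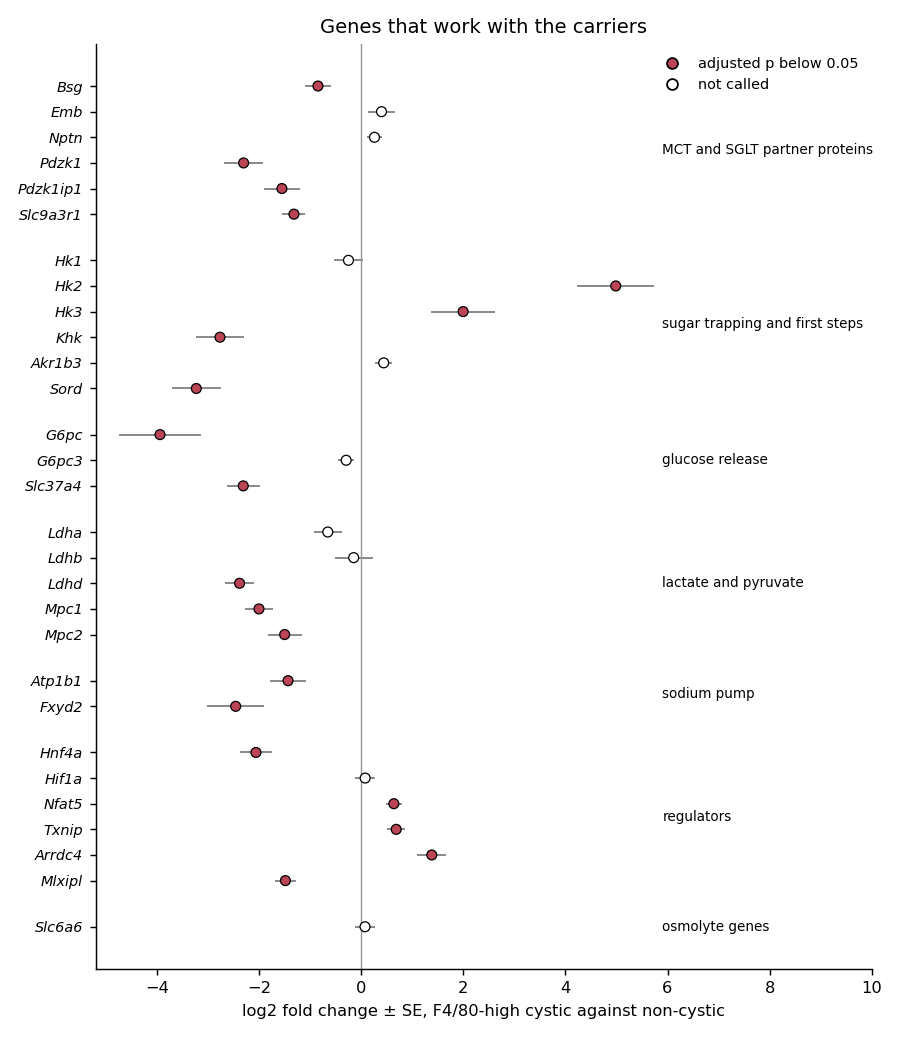
Log2 fold change with its standard error, F4/80-high cystic against non-cystic regions, for 29 of the 33 tested genes that work with the carriers, grouped by role; filled points have an edgeR adjusted p below 0.05. Hk2 has the highest value at 4.99, G6pc the lowest at -3.94, and Atp1b1 and Fxyd2 are filled and below 0. The Hk2 value is measured from a very low non-cystic level.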

How the data were processed

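Each deposited value is a whole-number count of reads for a gene in 1 library; nothing in the file shows that the authors normalized it. RNA was extracted with TRI reagent and made into libraries with a low-input kit, per the labels' protocols. The submitters' processing notes list mm10 (GRCm38) and HTSeq 0.11.0, along with FastQC 0.11.9 and fastp 0.20.1, but not their roles. For the aligner, annotation release and strand setting the sources used here give nothing.

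Paired libraries were added up to 9 sums and fitted in R 4.3.3 with edgeR 4.0.16 (TMM scaling, filterByExpr, robust quasi-likelihood test, two-sided), with the kidney as a block, since the region types come from the same kidneys; deviations of same-kidney sums correlated at -0.15 to 0.28. P-values were Benjamini-Hochberg adjusted over 16034 genes and called below 0.05. CPM are TMM-scaled, and the SE was taken as the size of the log2 fold change divided by the root of the F statistic. The fit was also run on simulated counts with a fixed spread and no kidney effect. That run checks the code and not the error rates in these data. Alternatives were DESeq2 1.42.0, other scalings, filters and blocks, and each kidney or library left out. The 2 libraries of a sum differed by more than counting noise in all 9 sums. Coordinates and exon lengths are GENCODE's. Members and lists were chosen with earlier results of these data known. Every carrier could be named; values in every sum are given for called carriers reaching a mean of 5 CPM in a region type and for Slc2a1, Slc2a2, Slc5a1, Slc5a2, Slc16a1 and Slc16a3. Those of Slc2a3, Slc2a6, Slc2a10 and Hk2 were added after they were seen. Some of the carriers and listed genes are counted but not reported here singly.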

Additional observations from a re-analysis of the deposited data

Results flagged for a closer look

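In 72 groups of 6 libraries (24 carriers in 3 region types), 5 libraries lay far from the rest of their group, where chance flags about 1 group in 20. Slc5a8 had 193.6 CPM in F4/80-low kidney 3 replicate 2, against 51.3 to 101 CPM in the other 5 F4/80-low libraries. Slc2a9 had 5.99 CPM in F4/80-low kidney 1 replicate 1, against 1.16 to 2.36 CPM. Slc16a1 had 13.0 CPM and Slc16a13 had 21.6 CPM in F4/80-low kidney 1 replicate 2, against 8.23 to 9.79 CPM and 17.6 to 18.8 CPM. Slc16a3 had 2.42 CPM in non-cystic kidney 2 replicate 1, against 0 to 0.467 CPM in the other non-cystic libraries.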

How the results depend on the processing

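All 37 called carrier values kept their sign in each of the 31 alternatives that gave them a value, and 11 also kept their call in all of them. Of these calls 20 were lost without kidney 1, 3 without kidney 2 and 7 without kidney 3. Without kidney 1 the share of all tested genes lower in F4/80-high regions was 9.93% against non-cystic and 3.19% against F4/80-low. Of 62 values not called, 24 changed sign and 13 were called in at least 1 alternative. The count of higher carriers in F4/80-high against non-cystic regions (2) was 5 with total counts as scaling, 0 with the stricter filter (50 counts in 3 sums), which left 28 carriers, and 1 with the replicate number added as a block on 18 libraries, and ran from 0 to 3 with a kidney or library left out. Over all tested genes the share higher (19.7%) was 41.2% with total counts, 21.9% with the stricter filter and 26.3% with the replicate block. The count of higher carriers against F4/80-low (1) was 0 with the stricter filter, 0 with 18 libraries and the kidney as block and 0 with the replicate block added, and 0 to 1 with 1 left out. The share of all tested genes higher (10.3%) was 13.2%, 18.6% and 17.7% with these filter and block settings. The count of lower carriers against F4/80-low (15) was 18 with the replicate block, 10 with total counts as scaling, 11 with the compared region types alone, 11 with no kidney block, 12 with no filter and 4 to 16 with 1 left out, and against non-cystic (19) 20 with the replicate block and 13 to 21. The share of all tested genes lower against F4/80-low (14.0%) was 19.6%, 6.985%, 8.23%, 14.2%, 7.93% and 3.19% to 15.2% in the same order. Against non-cystic (19.5%) it was 24.2% with the replicate block and 9.93% to 20.4% with 1 left out. For F4/80-low against non-cystic, 0 lower carriers became 2 with DESeq2 and 0 to 1 with 1 left out, the 1 being Slc2a9. The replicate numbers did not pair libraries across region types: correlations of their differences were -0.10 to 0.11. Total counts as scaling moved the median log2 fold change of all genes to 0.65 for F4/80-high against non-cystic, 0.52 against F4/80-low and 0.13 for F4/80-low against non-cystic, and upper quartile factors to 0.16, 0.16 and 0.00; the carriers' medians were then -0.93, -0.68 and -0.12, and -1.41, -1.03 and -0.25. With no filter on low counts 27440 genes were tested and 15 carriers were lower in F4/80-high against non-cystic regions. In that fit 10.6% of all tested genes were lower. Carriers under 20 counts per non-cystic sum (Slc2a3, Slc2a6, Slc2a10, Slc2a13 and Slc16a3) are limited by depth. Depth also limits Hk2 and Hk3, at mean non-cystic levels of 0.158 and 0.848 CPM.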
